A study of Mus musculus with 8 samples.

Results

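Chemokine receptors steer T cells between lymphoid organs and tissue, and 9 of their genes are described here in virus-specific effector CD8 T cells without and with Blimp-1. The 9 genes were Ccr7, Ccr6, Cxcr3, Cxcr4, Cxcr6, Cx3cr1, Ccr2, Ccr9 and Ccr10, out of 14776 genes named on the arrays. They were taken by gene symbol, and every array feature carrying 1 of these symbols was kept, which gave 10 features of 24048, with 2 for Ccr6 and 1 for each of the others. The mice were Blimp-1 conditional knockouts (CKO), carrying Blimp-1flox/flox and GranzymeB-cre+, and wild-type (WT) littermates, with 4 samples of each, which the series describes as independent. All mice had been infected with 200000 plaque-forming units (PFU) of LCMV-Armstrong, a strain of lymphocytic choriomeningitis virus that causes an acute infection. CD8+ cells of the spleen that bound class I tetramers displaying peptides of the viral glycoprotein (GP) or nucleoprotein (NP) were sorted on day 8. The Cre recombinase is driven by the granzyme B promoter, which is switched on when CD8 T cells become activated, so the deletion follows activation. The labels give neither the age nor the sex of the mice, nor whether animals were pooled.

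Chemokine receptors are G protein-coupled receptors that sense gradients of small secreted proteins, and each T cell state carries its own combination of them. Ccr7 keeps naive and central memory T cells circulating through lymph nodes, whereas Cxcr3, Cxcr6 and Cx3cr1 belong to effector cells that enter inflamed tissue or patrol vessels. Cxcr4 holds cells in the bone marrow, Ccr6 and Ccr9 are linked to mucosal surfaces, Ccr10 to skin and mucosa, and Ccr2 to the exit of cells from the bone marrow toward inflammation. Blimp-1, encoded by Prdm1, is a transcriptional repressor that rises as CD8 T cells become terminal effectors. The comparison asks which receptor transcripts differ on day 8 when it is missing.

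Signals are on the log2 scale as deposited, so a difference of 1 is a doubling. The median of every array was 6.15, and the lowest value in the table was 5.33. Differences are CKO minus WT, and they were tested with limma in 1 fit across all array features whose mean over the 8 samples exceeded 6.12. Each gene is represented by its brightest tested feature, 8095 genes in all, and adjusted p-values are Benjamini-Hochberg values over all 11991 tested features with a threshold of 0.05. Of the 9 receptors, 6 passed this filter through 1 feature each. The remaining 3, Ccr2, Ccr9 and Ccr10, and the dimmer feature of Ccr6 are given as values. Because a receptor near the median could pass the filter through its brighter group alone, the tested receptors are not a sample of all 9. Counts at an unadjusted p under 0.05 are given below without the share over all tested genes, which was not counted.

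The arrays correlated with each other at Pearson's r between 0.971 and 0.993 over all features. The 2 features named Prdm1 moved in opposite directions. The first had 8.93, 9.21, 9.27 and 8.65 in CKO1 to CKO4, against 6.11, 5.74, 5.80 and 5.59 in WT1 to WT4. The second had 6.52, 6.65, 6.29 and 6.53 in CKO1 to CKO4, against 7.59, 7.94, 8.07 and 7.51 in WT1 to WT4. Their positions relative to the deleted exons are not stated, so neither checks the labels. CD8 T cell markers were bright in every sample: 5 of 7 had a feature and none was dim, meaning at or below the filter in both groups. Their summed linear signal was 49911 to 57388 in CKO samples and 59555 to 64419 in WT samples. Of the 5, 3 had an unadjusted p under 0.05 in limma and 1 was called lower, beside 3.04% of all tested genes. The called marker was Cd2, an adhesion receptor, with a difference of -0.54 (limma adjusted p = 0.00857), a call lost without both samples numbered 3 (0.114) or 4 (0.0504). Cd8b1, on its brighter feature, and Cd3e had differences of -0.33 and -0.38 (limma adjusted p = 0.0898 and 0.0982). Those of Cd3d and Cd3g were 0.06 and -0.06.

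Ccr7, Ccr6 and Cxcr3 were higher in CKO cells, Cxcr6 and Cx3cr1 were lower, and Cxcr4 did not pass the test. The 3 receptors that were higher stand beside 4.73% of all tested genes that were called higher, and the 2 that were lower beside 3.04% called lower. With the replicate number as a block, the genes called lower over the whole array numbered 461 in place of 246, and the receptor calls did not change. Fewer genes were called when samples were left out: 190 higher and 101 lower without CKO3, and 92 higher and 43 lower without both samples numbered 3. The median difference was 0.58 over the 6 receptors and -0.01 over all 8095 genes. In bulk samples like these, fewer cells of a type and less RNA per cell cannot be told apart.

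**Figure D1:**
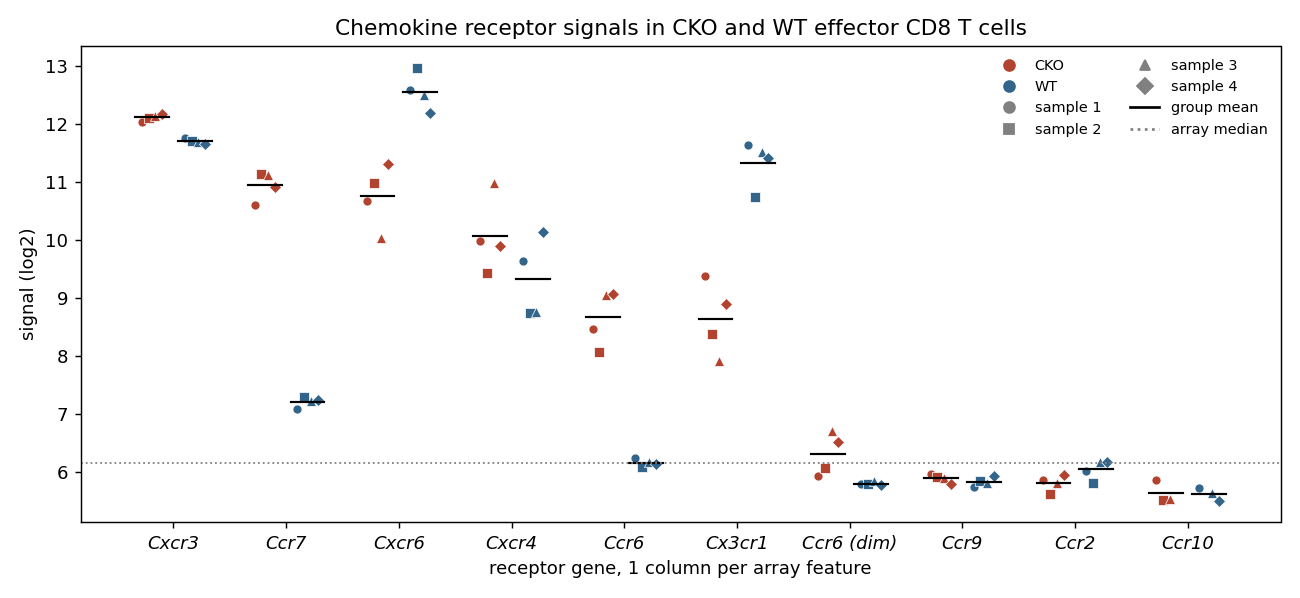
Signal (log2, vertical axis) of each of the 10 array features of the 9 receptors in the CKO samples (red, left of each pair) and the WT samples (blue, right). Marker shape gives the sample number, the black line the group mean and the dotted line the array median. Ccr7 and the brighter Ccr6 feature lie apart upward in CKO samples, Cxcr6 and Cx3cr1 apart downward, and the features of Ccr9, Ccr2 and Ccr10 lie around or under the array median.

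Ccr7, the receptor for Ccl19 and Ccl21 that draws T cells into the T zone of lymph nodes, changed most. Its signals were 10.60, 11.15, 11.12 and 10.92 in CKO1 to CKO4, against 7.08, 7.30, 7.22 and 7.23 in WT1 to WT4. Every CKO sample lay far above every WT sample, with a gap of 3.30 between the lowest CKO and the highest WT value. The means were 10.95 ± 0.25 in CKO cells and 7.21 ± 0.09 in WT cells (SD, n = 4 each), a difference of 3.74 with a 95% interval of 3.45 to 4.03. That is 13.4-fold (11.0 to 16.3), with a standard error of 0.13 on the log2 scale and adjusted p = 4.51e-07 in the limma fit. No other of the 8095 genes had a larger positive difference. Relative to all features, the mean of Ccr7 stood at the 96.2 percentile in CKO cells and at the 72.6 percentile in WT cells, so WT cells already gave a signal above the array median.

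Ccr6, the receptor for Ccl20 that is known from B cells and from T cells of mucosal surfaces, was well above the array median in CKO cells and near it in WT cells. The brighter feature had 8.46, 8.08, 9.05 and 9.07 in CKO1 to CKO4, against 6.24, 6.08, 6.16 and 6.13 in WT1 to WT4. The CKO samples spread widely and the WT samples little, and a gap of 1.84 separated the groups. The means were 8.66 ± 0.48 in CKO cells and 6.15 ± 0.07 in WT cells (SD, n = 4 each), a difference of 2.51 with a 95% interval of 2.06 to 2.96, or 5.71-fold (limma adjusted p = 0.00026). The WT mean lay at the 51.8 percentile of features, where background makes up an unknown share of the signal. The difference was 3.25 after 32 units were subtracted from every linear value and 1.92 after 50 units were added, with adjusted p of 0.000133 and 0.000904 in the same order.

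The dimmer Ccr6 feature had 5.93, 6.07, 6.70 and 6.51 in CKO1 to CKO4, against 5.79, 5.79, 5.84 and 5.77 in WT1 to WT4. It lay higher in every CKO sample than in any WT sample, but by a gap of 0.10, and its difference of 0.51 was smaller than that of the brighter feature. Fitted without the filter it had an adjusted p of 0.114 in limma (95% interval 0.18 to 0.84). On both features the 2 highest values were those of CKO3 and CKO4.

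Cxcr3, the receptor for Cxcl9, Cxcl10 and Cxcl11 and a standard feature of effector CD8 T cells, was bright in both groups and slightly higher in CKO cells. It had 12.04, 12.11, 12.15 and 12.18 in CKO1 to CKO4, against 11.77, 11.71, 11.69 and 11.66 in WT1 to WT4. The samples of each group lay close together and the groups did not overlap, with a gap of 0.27. The means were 12.12 ± 0.06 in CKO cells and 11.71 ± 0.05 in WT cells (SD, n = 4 each), a difference of 0.41 with a 95% interval of 0.23 to 0.59, or 1.33-fold (limma adjusted p = 0.0159). Of the 8095 genes, 556 had a difference at least this high. The call was lost without CKO3 (adjusted p = 0.0649) and without CKO4 (0.0545), with differences of 0.40 and 0.39.

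Cxcr4, the receptor for Cxcl12, varied widely within both groups. Its signals were 9.98, 9.43, 10.99 and 9.91 in CKO1 to CKO4, against 9.64, 8.74, 8.77 and 10.14 in WT1 to WT4. The groups overlapped, since WT4 was above 3 of the CKO samples. The means were 10.08 ± 0.66 in CKO cells and 9.32 ± 0.69 in WT cells (SD, n = 4 each), a difference of 0.75 with a 95% interval of -0.07 to 1.58. It missed the threshold (limma adjusted p = 0.295), and an exact two-sided permutation test of 4 samples against 4 gave p = 0.2, where the smallest possible p is 0.0286. The interval holds both no difference and one of more than 1 on the log2 scale. Between same-numbered samples CKO minus WT was 0.33, 0.69, 2.22 and -0.24, so the widest difference came from the samples numbered 3 and the sign turned in those numbered 4.

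Cxcr6, the receptor for the membrane-bound chemokine Cxcl16 and known from effector and tissue-resident T cells, was lower in CKO cells and was the brightest of the 9 in WT cells. It had 10.68, 10.98, 10.03 and 11.32 in CKO1 to CKO4, against 12.59, 12.98, 12.50 and 12.19 in WT1 to WT4. All CKO samples lay under all WT samples, with a gap of 0.87. The means were 10.75 ± 0.55 in CKO cells and 12.56 ± 0.33 in WT cells (SD, n = 4 each), a difference of -1.81 with a 95% interval of -2.38 to -1.24. Cxcr6 was thus 3.51-fold lower in CKO cells (limma adjusted p = 0.00325), and 12 genes, Cxcr6 included, had a difference at least this low. Its CKO mean was still above 95.6% of features, against 99.0% for its WT mean.

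Cx3cr1, the receptor for fractalkine that marks cytotoxic effector CD8 T cells in blood and spleen, had the largest negative difference of the 9. Its signals were 9.38, 8.37, 7.91 and 8.89 in CKO1 to CKO4, against 11.65, 10.75, 11.53 and 11.42 in WT1 to WT4. The highest CKO value lay 1.37 below the lowest WT value. The means were 8.64 ± 0.64 in CKO cells and 11.34 ± 0.40 in WT cells (SD, n = 4 each), a difference of -2.70 with a 95% interval of -3.36 to -2.03, or 6.49-fold lower in CKO cells (limma adjusted p = 0.00121). Only 2 of the 8095 genes had a lower difference. The mean of Cx3cr1 stood at the 84.2 percentile of features in CKO cells and at the 97.2 percentile in WT cells.

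Ccr2, Ccr9 and Ccr10 were at or under the filter of 6.12 in the mean of either group, so their signals lay among the dimmer features of the array. Ccr2, a receptor for Ccl2 best known from inflammatory monocytes, had 5.86, 5.62, 5.80 and 5.95 in CKO1 to CKO4, against 6.02, 5.81, 6.17 and 6.17 in WT1 to WT4. The groups overlapped, and without the filter its difference of -0.24 had a limma adjusted p of 0.358 (95% interval -0.47 to -0.004). Ccr9, the receptor for Ccl25 that directs T cells to the small intestine, had 5.97, 5.92, 5.90 and 5.78 in CKO1 to CKO4, against 5.73, 5.85, 5.81 and 5.92 in WT1 to WT4, which also overlapped (difference 0.06, adjusted p = 0.844 without the filter). Ccr10, the receptor for Ccl27 and Ccl28, had 5.87, 5.51 and 5.52 in CKO1 to CKO3 and no value in CKO4, against 5.72, 5.64 and 5.50 in WT1, WT3 and WT4 and no value in WT2. Its difference of 0.01 rests on 3 samples per group (adjusted p = 0.987 without the filter). A signal at this level does not tell an absent transcript from a feature that does not report it.

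The 5 called receptors also did not overlap between the groups, 3 upward and 2 downward. Over all tested genes, 9.19% did not overlap upward and 6.49% downward. As follows from groups that do not overlap, all 4 differences between same-numbered samples had the same sign for each of the 5. They ranged from 3.52 to 3.89 for Ccr7, from 2.00 to 2.94 for Ccr6, from 0.27 to 0.52 for Cxcr3, from -2.47 to -0.87 for Cxcr6 and from -3.62 to -2.27 for Cx3cr1. CKO3 had the highest Cxcr4 signal and the lowest Cxcr6 and Cx3cr1 signals of its group. The samples numbered 3 likewise had the widest difference for Ccr7, Cxcr4, Cxcr6 and Cx3cr1.

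**Figure D2:**
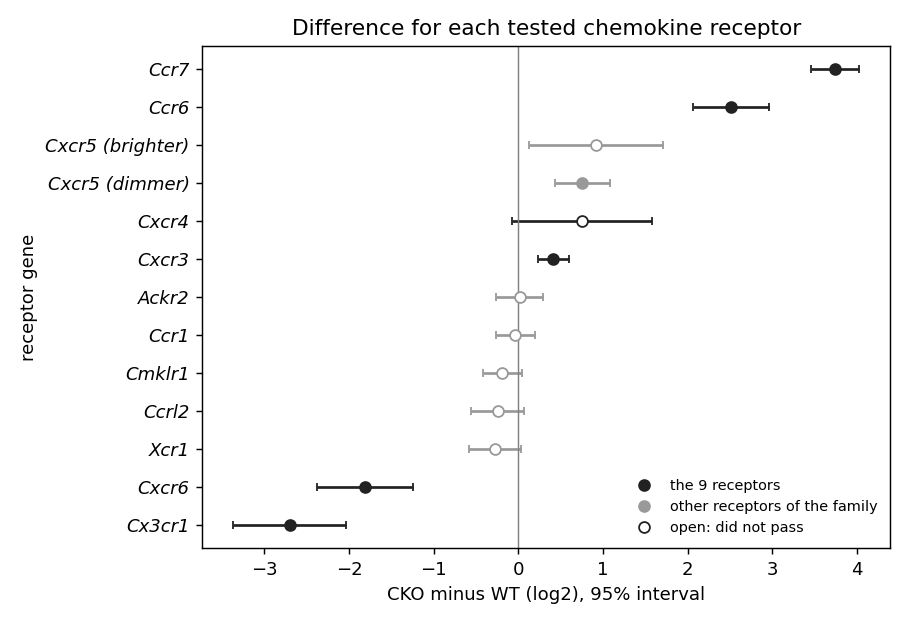
CKO minus WT difference (log2, horizontal axis) with its 95% interval for every tested feature of a chemokine receptor, sorted from highest to lowest. Black marks the 9 receptors and grey the rest of the family, and open circles did not pass the threshold. Ccr7 and Ccr6 lie furthest to the right and Cx3cr1 and Cxcr6 furthest to the left, while the interval of Cxcr4 crosses 0.

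The order of the 6 brighter receptors within a sample differed between the groups. The signal of an array feature also depends on the feature itself, so this order describes signals and not numbers of transcripts. In CKO samples Cxcr3 was brightest in all 4, followed by Ccr7, Cxcr6 and Cxcr4 in varying order, and then by Ccr6 and Cx3cr1. In the 4 WT samples the order was the same, with Cxcr6 brightest and then Cxcr3, Cx3cr1, Cxcr4, Ccr7 and Ccr6. Ccr7 was at place 2 or 3 in CKO samples and at place 5 in every WT sample, and Cx3cr1 was at place 5 or 6 in CKO samples and at place 3 in every WT sample. Cxcr4 was at place 4 in 7 of the 8 samples and at place 3 in CKO3.

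**Figure D3:**
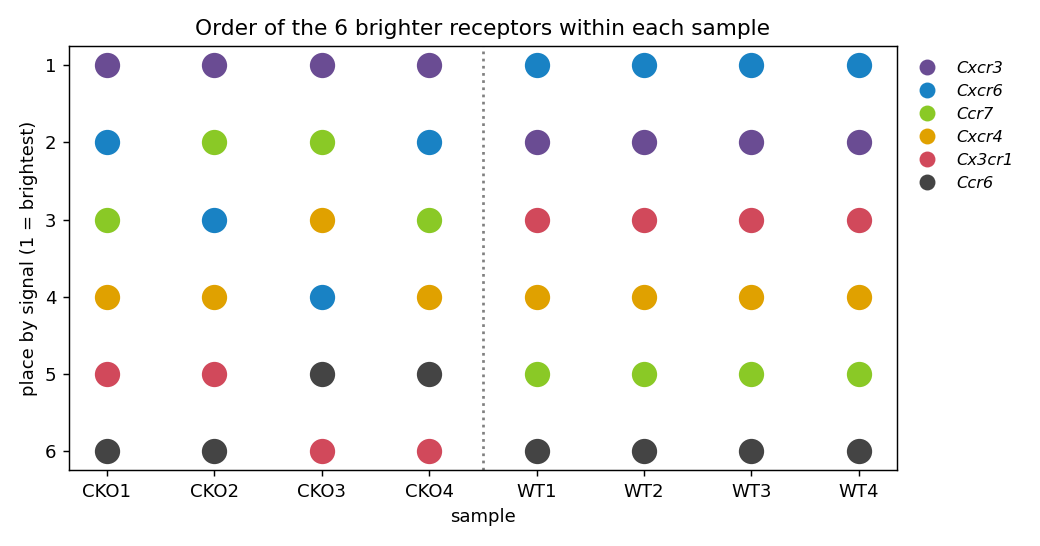
Place of the 6 brighter receptors by signal (1 is the brightest, vertical axis) in each of the 4 CKO samples (left) and the 4 WT samples (right). Each colour is 1 receptor. The 4 WT columns are identical, and in the CKO columns Cxcr3 is on top and Cx3cr1 at place 5 or 6.

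Among CKO means, neighbours in the order were Cxcr3 and Ccr7, 1.17 apart, and Cxcr4 and Ccr6, 1.41 apart, and the samples of these pairs did not overlap. Ccr7 and Cxcr6 (0.20 apart), Cxcr6 and Cxcr4 (0.68) and Ccr6 and Cx3cr1 (0.03) overlapped in CKO samples, so their order within the group does not exceed the spread. In WT samples none of the 6 overlapped with its neighbour, the means being 0.85, 0.37, 2.01, 2.11 and 1.06 apart from bright to dim. At the dim end of the WT order, Ccr6, Ccr2, Ccr9 and the dimmer Ccr6 feature each overlapped with the next. Ccr10 came last and did not overlap with the dimmer Ccr6 feature.

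Genes whose signal followed each receptor most closely over the 8 samples were ranked by root mean square distance, after both were centred on their mean, among 8092 genes with values in all samples. For Ccr7 these were Nsg2, a protein of vesicle trafficking, at 0.333, the feature of Prdm1 that rose at 0.361, and Id3, an inhibitor of E-protein transcription factors, at 0.545. For Ccr6 they were Cxcl10, a chemokine ligand of Cxcr3, at 0.373, Mgarp at 0.388 and Adk, adenosine kinase, at 0.433. Cxcr3 was tracked within 0.064 by Osgep, Snrpa and Cd3eap, genes of tRNA modification, splicing and RNA polymerase I. Cxcr4 was followed by Ddit4, a stress-induced inhibitor of mTOR, at 0.327, by Slc7a5, an amino acid transporter, at 0.407 and by Tfrc, the transferrin receptor, at 0.408. Ddit4 shared with Cxcr4 the highest CKO value in CKO3, at 11.65, and the highest WT value in WT4, at 10.53. Centring over all 8 samples keeps the difference between the groups in this distance. A small distance to a called receptor can therefore come from a similar group difference, without the samples within a group running together.

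Klrg1, a receptor of terminally differentiated effector cells, was close to both receptors that were lower, at 0.325 from Cxcr6 and at 0.507 from Cx3cr1. Its signals were 10.07, 10.21, 9.17 and 9.88 in CKO1 to CKO4, against 11.99, 12.05, 11.80 and 11.97 in WT1 to WT4, with its lowest value in CKO3 as for both receptors. Its highest WT value was in WT2, as for Cxcr6, whereas Cx3cr1 had its lowest WT value there. Cxcr6 was also followed by Ly6f at 0.334 and Irak3, an inhibitor of Toll-like receptor signalling, at 0.377. Cx3cr1 was nearest to S1pr5, a sphingosine-1-phosphate receptor of egress from tissue, at 0.493, and the third was Zeb2, a transcriptional repressor, at 0.567.

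Of 16 other receptors of the chemokine family, 15 had an array feature and 6 were tested through their brightest. By that feature none was called in either direction in limma, and 1 of the 6 had an unadjusted p under 0.05. Their median difference was -0.11. Cxcr5, the receptor that leads cells to B cell follicles, had a brighter feature with 7.87, 7.67, 6.29 and 6.18 in CKO1 to CKO4, against 6.0, 5.97, 6.28 and 6.11 in WT1 to WT4. On it CKO1 and CKO2 stood out, while CKO3 and CKO4 lay close to the WT samples (difference 0.92, adjusted p = 0.17).

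The dimmer Cxcr5 feature had 6.45, 6.29, 7.0 and 6.75 in CKO1 to CKO4, against 5.81, 5.80, 5.89 and 5.97 in WT1 to WT4. Here it was CKO3 and CKO4 that were highest, the groups did not overlap, and its difference of 0.76 passed the threshold (limma adjusted p = 0.0133). With means of 6.63 in CKO cells and 5.87 in WT cells, this feature passed the filter of 6.12 through the CKO samples alone. That call was lost when both samples numbered 1, 3 or 4 were left out (adjusted p = 0.0644, 0.0947 and 0.0774). With Cxcr5, the brightest of the 16 were Ccrl2 and Ccr1. Ccrl2 averaged 6.45 in CKO cells and 6.70 in WT cells (adjusted p = 0.386), and Ccr1 6.16 in CKO cells and 6.20 in WT cells (adjusted p = 0.9). A further 7 receptors (Ccr3, Ccr4, Ccr8, Ccr1l1, Cxcr1, Ackr3 and Ackr4) were at or below 6.12 in both groups.

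Among 19 ligands of the 9 receptors, 16 had a feature, 6 were tested, 1 was higher and none was lower, with 1 of the 6 at an unadjusted p under 0.05 in limma. The median difference of the 6 was 0.06, and over all tested genes 4.73% were called higher and 3.04% lower. The ligand that was higher was Cxcl10, an interferon-induced ligand of Cxcr3, with 7.48, 7.55, 9.02 and 9.21 in CKO1 to CKO4, against 6.10, 6.0, 6.33 and 6.26 in WT1 to WT4. Its values fell into a lower pair, CKO1 and CKO2, and a higher pair, CKO3 and CKO4, all above the WT samples. The difference was 2.14 (limma adjusted p = 0.00805), and the call was lost when both samples numbered 3 were left out (0.0706). As for Ccr6, the WT signal lay near the array median, and the difference was 2.81 after 32 units were subtracted from the linear values and 1.62 after 50 were added. Cxcl9, another ligand of Cxcr3, had a difference of 0.43 (adjusted p = 0.58).

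Of 34 genes that carry the signal inward from chemokine receptors, 31 had a feature and 25 were tested. Of these, 1 was higher, 3 were lower and 21 did not pass, with 12 of the 25 at an unadjusted p under 0.05 in limma. Over all tested genes, 4.73% were called higher and 3.04% lower, and the share at an unadjusted p under 0.05 was not counted. The median difference of the 25 was -0.15. Rac2, a small GTPase of actin movement in blood cells, was lower at 12.42 ± 0.14 in CKO cells and 12.94 ± 0.09 in WT cells (SD, n = 4 each, limma adjusted p = 0.0118). Rap1b, a GTPase that switches on integrins, was lower at 12.72 ± 0.08 in CKO cells and 13.38 ± 0.20 in WT cells (adjusted p = 0.00803). The differences were -0.53 for Rac2, a call lost without CKO3 (adjusted p = 0.0504), and -0.66 for Rap1b, a call lost without both samples numbered 1 (0.0588) or 3 (0.065). Rgs10, which shortens G protein signals, had 10.17, 9.70, 10.44 and 10.47 in CKO1 to CKO4, against 8.69, 7.09, 9.11 and 8.76 in WT1 to WT4. Sample 2 was lowest in both groups, and the difference of 1.78 had an adjusted p of 0.0203, lost without CKO3 (0.0719) or CKO4 (0.058). Rgs3, of the same family, had a difference of -0.46 on its brightest feature (adjusted p = 0.0422), which held in 9 of 19 alternatives. Its other 4 tested features had differences of -0.40, -0.24, -0.19 and 0.03, and none of them passed.

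Several of the receptors lie next to genes of their own family on the chromosome. In the RefSeq gene order of GRCm38.p6, mouse chromosome 9 carries Ccr9, Fyco1, Cxcr6, Xcr1, Ccr1, Ccr1l1, Ccr3 and Ccr2 in 1 row of protein-coding genes. Of the 4 genes of that row that were tested, Cxcr6 passed. Fyco1, beside it, had 8.73, 8.25, 8.47 and 8.95 in CKO1 to CKO4, against 9.31, 9.73, 8.90 and 8.67 in WT1 to WT4, which overlapped (difference -0.55, adjusted p = 0.198). Xcr1, on the other side, differed by -0.28 (adjusted p = 0.302) and Ccr1 by -0.03 (adjusted p = 0.9), and the means of Ccr1l1 and Ccr3, which were not tested, lay between 5.87 and 6.12.

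**Figure D4:**
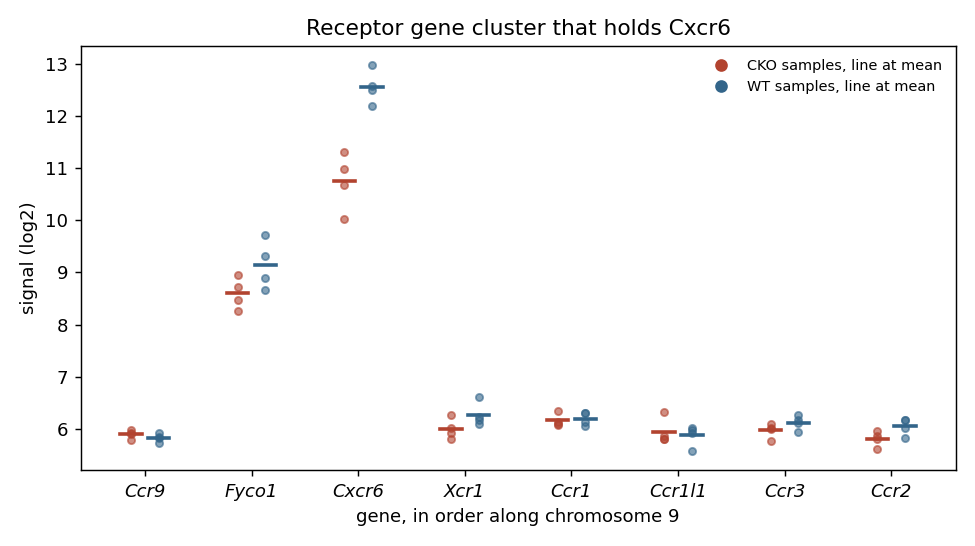
Signal (log2, vertical axis) of the genes around Cxcr6 in their order along chromosome 9, in CKO samples (red, left of each pair) and WT samples (blue, right), with a line at each mean. Cxcr6 stands above the rest of the row in both groups and is lower in CKO samples, while the receptors on its right lie near the array median.

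Counting the 3 nearest protein-coding genes on each side of each of the 9 receptors gave 47 other genes, of which 32 had a feature and 16 were tested. None passed in either direction in limma, beside 4.73% of all tested genes called higher and 3.04% called lower. Of the 16, 7 had an unadjusted p under 0.05, a count without its share over all tested genes. The differences of the 16 ran from -0.55 to 0.40. The nearest to the threshold was Smarce1, a chromatin remodelling subunit next to Ccr7, at 0.40 (adjusted p = 0.0636). Top2a, the topoisomerase on the other side of Ccr7, differed by -0.01 (adjusted p = 0.99).

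No promoter window was held for Ccr7 or Ccr10, so these receptors were not searched for motifs. Promoter windows from RefSeq (GRCm38.p6), from 250 bases before to 50 bases after a transcript start, were held for 7 of the 9 receptors in 8 windows. They were searched on both strands for 3 letter runs: GTGAAAG, the core bound by Blimp-1 and shared with interferon regulatory factors, TCACACCT of T-box factors, and CAGGTG, an E-box bound by ZEB and E proteins. A T-box run followed by G also holds the E-box. Of all 32851 windows of this length, 4.24% held GTGAAAG, 1.28% TCACACCT and 20.2% CAGGTG. Among the 8 windows of the receptors, 3 held a run: GTGAAAG stood in 1 of the 2 windows of Ccr6 and CAGGTG in those of Cxcr3 and Ccr9. The 4 windows below belong to receptors called in opposite directions, Ccr6 and Cxcr3 with a run in capitals and Cxcr6 and Cx3cr1 with none of the 3, each given 5′ to 3′ on the strand of its gene. In Ccr6 the run reads CTTTCAC on this strand, and its first base is at -216 from the start. In Cxcr3 it reads CACCTG, at -116. A match says only that these letters are present in the window.
Ccr6, chr17:8242276-8242575, plus strand: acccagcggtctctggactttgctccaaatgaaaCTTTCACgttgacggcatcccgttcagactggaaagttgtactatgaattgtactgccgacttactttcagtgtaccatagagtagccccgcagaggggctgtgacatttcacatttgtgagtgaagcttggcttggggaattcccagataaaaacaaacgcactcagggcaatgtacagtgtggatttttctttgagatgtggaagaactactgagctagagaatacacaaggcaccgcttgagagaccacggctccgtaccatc
Cxcr3, chrX:101734098-101734397, minus strand: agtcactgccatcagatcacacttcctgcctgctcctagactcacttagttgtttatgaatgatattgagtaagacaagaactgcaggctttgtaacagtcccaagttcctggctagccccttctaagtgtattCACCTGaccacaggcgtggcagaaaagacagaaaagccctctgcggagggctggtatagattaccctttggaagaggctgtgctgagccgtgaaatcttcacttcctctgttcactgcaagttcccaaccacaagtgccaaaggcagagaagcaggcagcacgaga
Cxcr6, chr9:123806227-123806526, plus strand: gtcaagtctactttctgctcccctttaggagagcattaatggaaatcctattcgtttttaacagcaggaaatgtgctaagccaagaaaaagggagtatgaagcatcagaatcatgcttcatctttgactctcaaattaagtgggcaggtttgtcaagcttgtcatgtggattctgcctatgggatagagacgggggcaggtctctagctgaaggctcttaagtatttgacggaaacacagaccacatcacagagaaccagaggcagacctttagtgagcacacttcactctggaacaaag
Cx3cr1, chr9:120068247-120068546, minus strand: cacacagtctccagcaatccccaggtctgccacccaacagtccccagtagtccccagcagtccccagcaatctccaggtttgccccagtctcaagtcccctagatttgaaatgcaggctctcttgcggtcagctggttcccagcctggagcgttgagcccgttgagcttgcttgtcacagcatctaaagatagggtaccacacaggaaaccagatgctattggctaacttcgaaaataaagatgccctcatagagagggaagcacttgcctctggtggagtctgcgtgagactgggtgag

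Other cell types in the sort that carry these receptors were followed through marker lists, and "dim" again means at or below the filter in both groups. B cells, known for Ccr7, Ccr6 and Cxcr4, had 7 of 9 markers on the array, 4 of them dim (Blk, Pax5, Fcer2a and Cr2), and their summed linear signal was 619 to 688 in CKO samples and 658 to 920 in WT samples. None of the 3 tested B cell markers was called in limma, with 2 at an unadjusted p under 0.05. Their differences were -0.54 for Cd79a, -0.40 for Cd79b and 0.11 for Cd22. The brightest, Cd79b, averaged 7.89 in CKO cells and 8.29 in WT cells. All 4 plasma cell markers and all 3 measured gamma delta T cell markers, Sox13, Blk and Il17a, were dim. Dendritic cell markers, relevant to Ccr7, summed to 2545 to 6965 in CKO samples and 3641 to 7646 in WT samples, with 6 of 8 tested, none called (1 at an unadjusted p under 0.05), and Flt3 and Clec9a dim. Other members were bright, with means in CKO and WT cells of 9.66 and 10.88 for Itgax and 10.06 and 10.40 for H2-Aa. Those of Cd74 were 9.74 and 9.82 and those of H2-Ab1 8.64 and 9.38, while Zbtb46 and Siglech lay between 6.30 and 6.42. The part of these cell types in the Ccr7 and Ccr6 results was not tested.

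For Cx3cr1 and Ccr2, monocyte and macrophage markers had 6 of 9 on the array, with Cd14 and Itgam dim and none of the 4 tested called (1 at an unadjusted p under 0.05). Their sum was 2069 to 5164 in CKO samples and 1809 to 2430 in WT samples, with the highest in CKO4. Ctss was the brightest, at 10.99 in CKO cells and 10.30 in WT cells, without overlap (difference 0.69, limma adjusted p = 0.0766). Lyz2 ran from 6.56 to 10.30 in CKO samples, highest in CKO4, and from 6.45 to 8.87 in WT samples. Adgre1 and Fcgr3 each had a difference of 0.08. Natural killer cell markers, relevant to Cx3cr1, summed to 1503 to 2136 in CKO samples and 2149 to 3308 in WT samples. Ncr1 and Klra8 were dim and none of the other 3 was called, with 2 at an unadjusted p under 0.05. The sum of this list was lower in CKO samples, as Cx3cr1 was, and its part in that result was not tested. Its widest member, Klrb1c, had 6.72, 6.77, 6.63 and 6.65 in CKO1 to CKO4, against 9.95, 9.91, 6.72 and 8.04 in WT1 to WT4. The other tested members were Klre1, at 9.39 in CKO cells and 9.91 in WT cells (difference -0.52), and Eomes, at 9.97 in CKO cells and 9.78 in WT cells (difference 0.19).

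Markers of naive and central memory T cells, the states known for Ccr7, had 3 of 5 on the array and summed to 6421 to 8722 in CKO samples and 4479 to 5652 in WT samples. Il7r, the interleukin 7 receptor, was higher on its brighter feature, with 12.16, 11.81, 11.89 and 11.36 in CKO1 to CKO4, against 10.59, 10.51, 9.94 and 10.26 in WT1 to WT4 (difference 1.48, limma adjusted p = 0.00194). Lef1 and Satb1 had differences of 0.22 and 0.03 (adjusted p = 0.709 and 0.934). The dimmer Il7r feature, also tested, overlapped between the groups (difference 0.63, limma adjusted p = 0.35). On its brighter feature Il7r was thus higher in CKO samples, as Ccr7 was, and the part of such cells in the Ccr7 result was not tested. Of the 4 CD4 T cell markers, Cd4, Foxp3 and Cd40lg were dim. Erythroid and neutrophil markers had no call in either direction (2 and 3 tested, with 1 and 0 at an unadjusted p under 0.05).

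**Figure D5:**
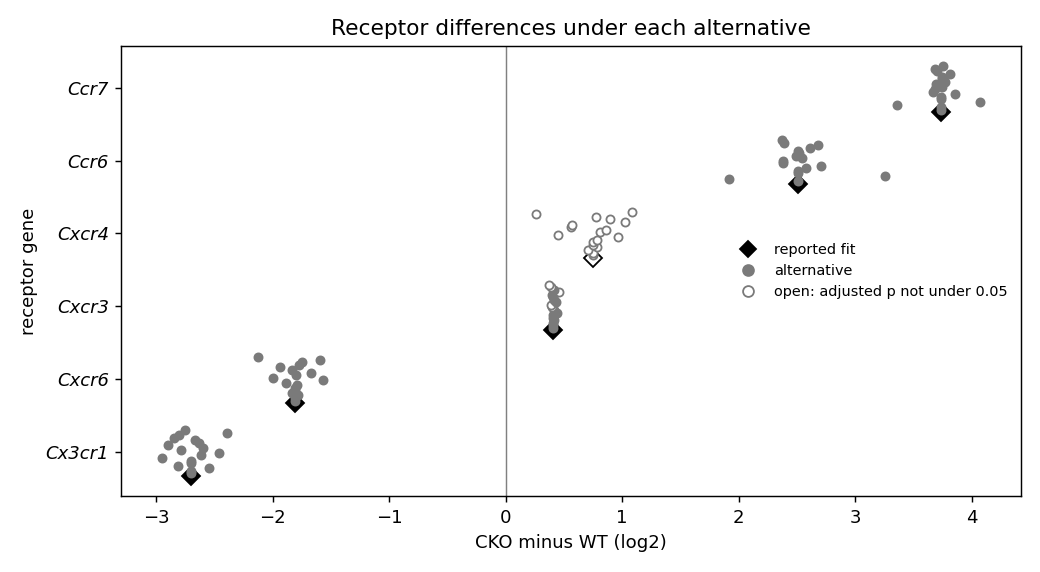
CKO minus WT difference (log2, horizontal axis) of the 6 tested receptors in the reported fit (diamond) and under each alternative (circles), with open symbols where adjusted p is not under 0.05. Every circle of a called receptor lies on the same side of 0 as its diamond, Ccr6 runs from 1.92 to 3.25, and of the called receptors Cxcr3 has open circles.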

How the data were processed

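Per the labels' protocols, RNA of the 8 sorted samples was amplified with an Illumina kit into biotinylated cRNA for 1-colour arrays. The values deposited by the authors are log2 signals, 1 per array feature and sample, from 5.33 to 15.15, and array medians from 6.149 to 6.152 show that the authors normalized between arrays. The method of normalization and any background correction are not stated, and no detection p-values were used. With 4 arrays per group, their number limits the precision.

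Symbols came from the platform annotation: 19397 of 24048 features had 1 symbol, 0 had several and 4651 had none. Features whose mean over the 8 samples exceeded the median of such means (6.12) were tested, 11991 in all, with limma 3.58.1 in R 4.3.3 (lmFit and eBayes, genotype as the only term, two-sided, Benjamini-Hochberg threshold 0.05). Tested features lacked 5 values, which limma left out. The procedure was tested on simulated data with the means and spread of the real features. It called 40.3% of added differences of 0.5, 82.1% of those of 1 and 97% of those of 2. A gene is represented by its brightest tested feature. Tables and figures were made in Python 3.11.15 with pandas 2.3.3 and matplotlib 3.10.9.

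The named genes are all features of the 9 receptors, members of the fixed lists (other receptors, ligands, transducers) that passed, up to 10 of the last, the 3 brightest other receptors, and the 3 genes nearest each tested receptor. Genes outside this rule, among them Cxcl9, Klrb1c and the chromosomal neighbours, were chosen after their values were seen. The receptors and lists were chosen with earlier results of these data known. Alternatives were no filter, a filter at the 75th percentile (7.46), 50 added to or 32 subtracted from linear values, trend and robust eBayes, the replicate number as a block, leaving out each sample or both of a number, and an exact permutation test.

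Groups share replicate numbers. Deviations from the group means correlated at 0.318, 0.468, 0.178 and 0.224 between same-numbered samples, and the numbers were taken to pair them. CKO3 with WT4 (0.263) and CKO4 with WT3 (0.254) correlated more closely than the samples sharing the number 3 or 4. The pairing by numbers 3 and 4 is thus unsure. The reported fit holds no term for pairs, and the replicate number entered as a block only in an alternative. What the numbers stand for is not given in the labels.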

Additional observations from a re-analysis of the deposited data

How the results depend on the processing

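For the 6 tested receptors, 113 alternative values were computed: 108 stayed on the same side of the threshold, 0 changed sign and 5 lost their call, all 5 of Cxcr3. Those were without CKO3 (difference 0.40, adjusted p = 0.0649), without CKO4 (0.39, 0.0545), and without both samples numbered 1 (0.46, 0.0634), 3 (0.39, 0.163) or 4 (0.38, 0.117). These fits hold fewer samples, as do others that kept the call, and the cause of the losses was not tested. The exact permutation test entered the alternatives with its unadjusted p and the difference of the reported fit. For a receptor whose groups do not overlap that p is always 0.0286, so this alternative could neither lose a call nor change a sign. Over all alternatives Ccr7 ranged from 3.35 to 4.07, Ccr6 from 1.92 to 3.25, Cxcr3 from 0.38 to 0.46, Cxcr4 from 0.26 to 1.08, Cxcr6 from -2.12 to -1.57 and Cx3cr1 from -2.95 to -2.39. Ccr6 was below the filter at the 75th percentile and so not tested there, which left 2 receptors higher. No receptor had 2 tested features, so averaging features changed nothing.

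The replicate block, which treats same-numbered samples as pairs, changed no receptor call, and over all features it gave 749 higher in place of 495 and 611 lower in place of 305. Leaving out 1 sample or 1 same-numbered pair gave 112 to 606 features higher and 51 to 464 lower, the fewest without both samples numbered 3. Among genes that were no receptor of the 9, calls were lost for Cxcr5 in 3 of 18 alternatives, for Cxcl10 in 1 of 18, and for Rac2 in 3, Rap1b in 2, Rgs10 in 6, Rgs3 in 10 and Cd2 in 2 of 19. Without detection p-values, signals near the array median cannot be placed above or within background, which limits Ccr2, Ccr9, Ccr10 and the WT levels of Ccr6 and Cxcl10.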

Other observations

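No sample stood apart from its group of 4 by Dixon's test at its 95% critical value, over 18 groups examined. Ccr10, with 3 values in each group, was not among them. The 18S ribosomal RNA control, which is no receptor, was at 12.71, 10.80, 12.91 and 12.92 in CKO1 to CKO4 and at 12.89, 11.20, 12.99 and 12.47 in WT1 to WT4, lowest in sample 2 of both groups. Hba-a1, a haemoglobin chain, was at 13.68, 8.29, 6.60 and 7.67 in CKO1 to CKO4 and at 13.28, 13.68, 12.33 and 12.08 in WT1 to WT4 (limma adjusted p = 0.109). Both were chosen after their values were seen.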
